A study of Mus musculus with 9 samples.

Results

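The DNA replication and S phase genes described here are 35 genes listed by symbol for their textbook roles. The list uses no measured value as a criterion, but it was drawn up with earlier results of these data known. All 35 symbols were found among the 24421 rows of the deposited table of read counts. They encode the proteins that license and fire replication origins, unwind and copy the DNA, join the new strands and supply the nucleotides. The libraries were made from mouse brains. SB28 cells, a GFP-carrying glioma line of the mouse, were grown in the brains of C57BL/6 mice that were 6 to 8 weeks old at implantation. BAL101553 is an oral prodrug whose active form binds tubulin and disturbs microtubules in mitosis. The control group holds 3 libraries labelled control, and the BAL101553 group 3 libraries labelled with that drug. The study describes its control samples as SB28 cells from vehicle-treated mice killed at day 21, and its BAL101553 samples as taken at day 33 by one statement and day 35 by another. If these days hold for the libraries used here, treatment and time of growth cannot be told apart. The labels give no day, and the study's data statement refers to a different deposit. The Astro group holds 3 libraries labelled astrocytes, also with BAL101553 as their treatment label. It is not described in the study's text, which states 2 ex vivo samples for each of the other groups and describes those as GFP-positive cells sorted without CD45 and CD11b, whereas the labels call them whole tissue. Nothing states that the libraries of a group came from separate mice, so p-values measure the spread between these libraries.

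DNA replication starts in G1, when the origin recognition complex, CDC6 and CDT1 load the ring of MCM2 to MCM7 onto DNA as an inactive helicase. In S phase, CDC45 and the GINS complex join this ring to form the active helicase, primase and polymerase alpha start each strand, and polymerases epsilon and delta extend it with the sliding clamp PCNA. Most of these genes are targets of E2F transcription factors, which are held back by the retinoblastoma family in resting cells, so their transcripts are abundant in dividing cells such as tumor cells and scarce in most cells of the adult brain. In bulk RNA, a lower share of cells in S phase and less RNA of a gene per cell cannot be told apart.

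Total counts per library ranged from 22919523 to 34013875, and libraries of one group differed from each other by more than sampling noise. Markers of brain cells were low in control and BAL101553 libraries apart from a few genes. Their summed level, in CPM (reads of a gene per fixed number of reads in its library, scaled by edgeR's TMM method), was 18.7 to 20.6 for 6 oligodendrocyte markers in control and 15.3 to 18.9 after BAL101553, and 5.84 to 11.2 and 5.04 to 8.09 for 10 microglia and macrophage markers, of which 8 and 9 stayed under 1 CPM in every library. The 8 astrocyte markers summed to 1075 to 1144 CPM in control, 760 to 918 after BAL101553 and 11924 to 14668 in Astro, with *Gja1*, a gap junction gene, the highest in both SB28 groups. The Astro libraries also held 10282 to 12723 CPM of oligodendrocyte markers and 493 to 1073 CPM of microglia and macrophage markers, so their label names only one of the cell types whose RNA they contained. The 5 endothelial markers summed to 736 to 861 CPM in control, 516 to 645 after BAL101553 and 164 to 191 in Astro, nearly all of it *Cdh5* in the SB28 groups. The 7 neuron markers reached 62.2 CPM at most, and the 7 T and NK cell markers 0.168 CPM in the SB28 groups, where 5 and 6 of them were at 0 in every library, and 2.10 CPM in Astro. The part of these cell types in the results below was not tested.

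All 35 genes were read in every library. The fewest reads of any of them in a control or BAL101553 library were 97, while 8 of the 35 had fewer than 100 reads in an Astro library. Per kilobase of exon, the clamp *Pcna* had the highest level of all members in each group, at 87.6 CPM per kb in control, 84.0 after BAL101553 and 29.3 in Astro. In control it was followed by *Mcm6* (56.0), *Mcm4* (53.7), *Mcm3* (39.8) and *Rrm2*, the small subunit of ribonucleotide reductase (36.4), and the lowest were *Cdc6* (3.30), *Orc1* (2.11) and *Gins3* (1.89). After BAL101553 the same 5 genes were at the top, with *Mcm4* (47.4) and *Mcm6* (46.4) exchanged. In Astro the order was different, with *Gins4* (21.6), *Rpa1* (16.6) and *Rfc1* (9.67) next after *Pcna* and *Orc1* last at 0.0362 CPM per kb. These levels use the total exon length of each gene over its annotated transcripts, which may not be the length of the transcript in use.

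Subunits that form one protein complex in equal amounts were not equal in RNA. Among the 6 MCM ring genes, the highest level per kb was 2.21 times the lowest in control, 2.29 times after BAL101553 and 5.16 times in Astro. Among the 4 GINS genes the same ratio was 12.8, 8.69 and 35.4, with *Gins4* highest throughout and *Gins3* lowest in both SB28 groups. The 5 clamp loader genes differed 2.38-fold in control, 2.61-fold after BAL101553 and 8.55-fold in Astro, and the 3 subunits of RPA, which coats single-stranded DNA, 1.93-fold, 1.88-fold and 2.93-fold. Across these 4 complexes the ratio was thus larger in Astro than in either SB28 group, which is a description of group means without a test.

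**Figure D1:**
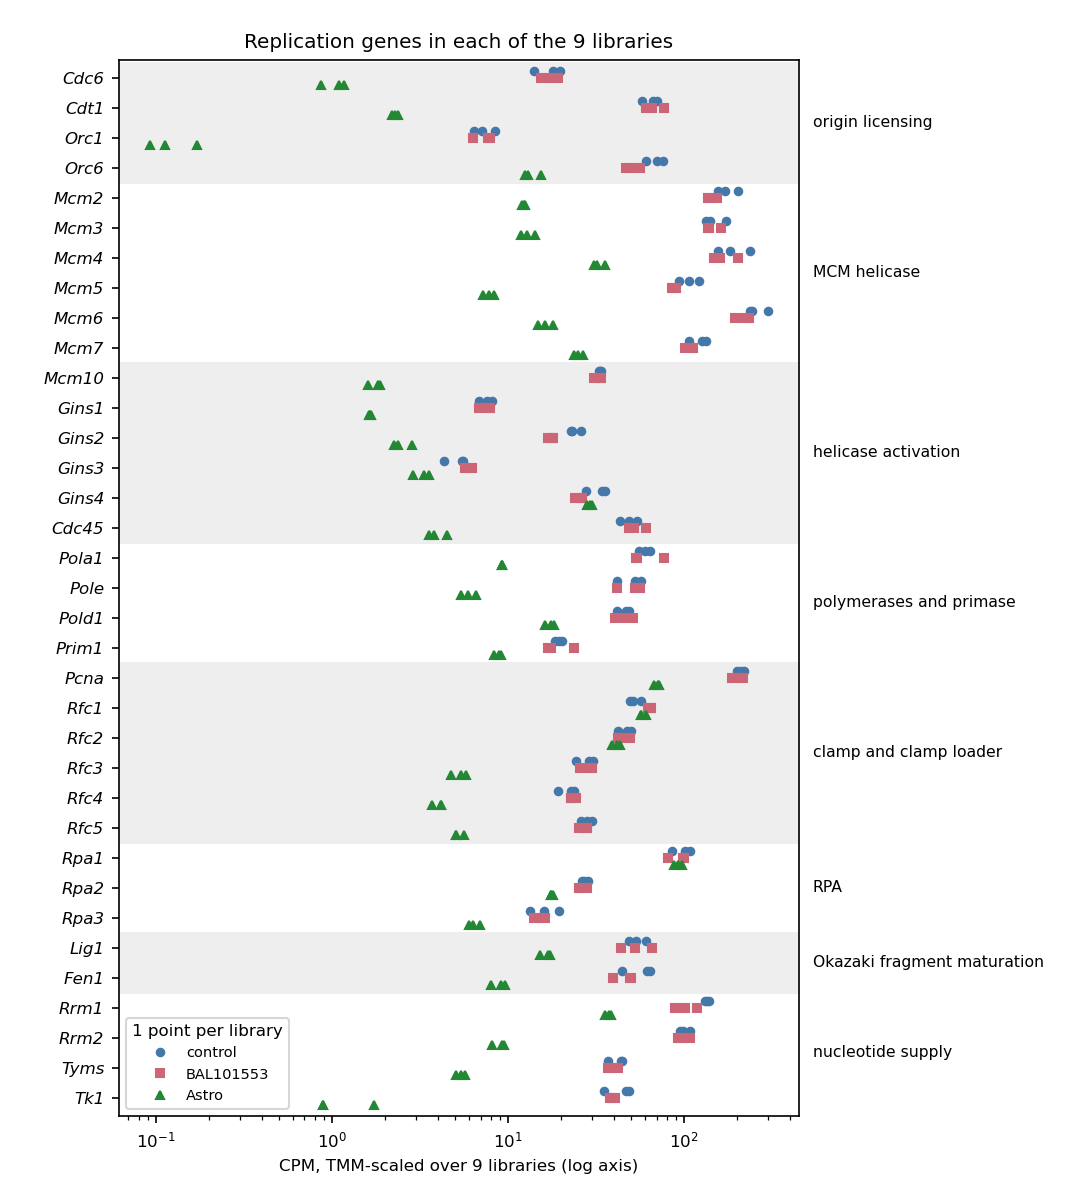
Level of each of the 35 replication genes in each of the 9 libraries, in TMM-scaled CPM on a log axis, with genes grouped by role. Control and BAL101553 points lie close together for most genes, while the Astro points lie lower for all except *Gins4*, *Rfc1*, *Rfc2* and *Rpa1*.

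Promoter sequences were read for the members because E2F factors are known to act on many of them. RefSeq promoter windows on GRCm38.p6, from 250 bases before to 50 bases after the start site, were found for 29 of the 35 members, and none for *Mcm4*, *Rfc2*, *Gins1*, *Gins2*, *Gins4* and *Pole*. E2F-type letters (TTTCCCGC, TTTGGCGC or TTTCGCGC on either strand, where matches may overlap) were present in 12 of these 29 genes, or 41.38%. Of all 27025 genes with a window, 573 (2.12%) held them, and of the 9609 tested genes with a window 4.08%. By role, they were found in 4 of 5 MCM ring genes, 3 of 4 licensing genes and 2 of 3 polymerase and primase genes, and in 0 of 4 nucleotide supply genes and 0 of 3 RPA genes. Related lists held them at similar or lower shares, with 9 of 23 E2F and Rb regulators (39.13%), 10 of 31 other replication factors (32.26%), 2 of 12 chromatin assembly genes, 2 of 12 checkpoint genes, 1 of 18 other nucleotide synthesis genes and 1 of 18 mitosis genes.

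After these counts were seen, 2 further sets of letters were searched. TTTGAA on either strand, the letters of the CHR element known from promoters of mitotic genes, was in 4 of 29 replication genes and 13.9% of tested genes, but in 13 of 18 mitosis genes (72.22%). CCAAT on either strand, the letters of the NF-Y box, was in 20 of 29 replication genes (68.97%), 16 of 18 mitosis genes and 43.33% of tested genes. The stretches printed here lie upstream of both the RefSeq start and the GENCODE gene and show what such matches look like. *Mcm6*, an MCM ring gene, holds the most E2F matches upstream of its start, 3, of which 2 overlap. *Mcm5* has 2 overlapping matches and *Pola1*, the catalytic subunit of polymerase alpha, has 1, and capitals mark these matches. *Orc6* is shown because it is one of the called genes described below. It had no E2F letters in its window, and capitals mark ATTGG, which is CCAAT on the opposite strand. The sequences run 5′ to 3′ on the strand of the gene, at chr1:128359729-128359831 (minus strand) for *Mcm6*, chr8:75109340-75109383 (plus) for *Mcm5*, chrX:93632270-93632309 (minus) for *Pola1* and chr8:85299572-85299631 (plus) for *Orc6*.
Mcm6: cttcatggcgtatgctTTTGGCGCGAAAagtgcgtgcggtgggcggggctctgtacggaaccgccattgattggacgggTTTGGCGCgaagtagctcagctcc
Mcm5: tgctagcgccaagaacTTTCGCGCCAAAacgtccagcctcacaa
Pola1: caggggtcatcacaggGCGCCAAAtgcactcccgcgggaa
Orc6: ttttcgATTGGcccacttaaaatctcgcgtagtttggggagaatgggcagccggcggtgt

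**Figure D2:**
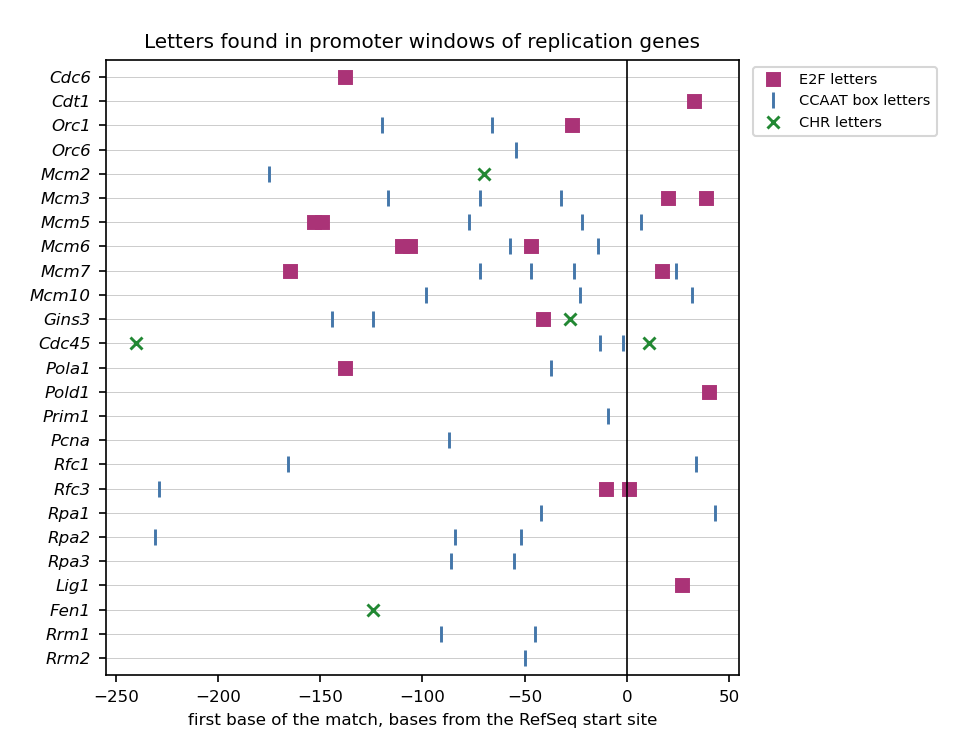
Position of E2F, CCAAT and CHR letters in the promoter windows of the replication genes, in bases from the RefSeq start site at 0; only genes with a match are drawn. E2F letters are spread on both sides of the start site over 12 genes, and CHR letters appear in 4.

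BAL101553 and control libraries were compared to ask how tumor cells grown under the drug differed from those grown without it. The replication genes were nearly level between the groups. Of the 35 genes, 2 were lower after BAL101553 and 0 were higher in edgeR's quasi-likelihood test at an adjusted p under 0.05. *Gins2*, a subunit of the GINS complex, fell by 0.45 on the log2 scale, and *Orc6*, a subunit of the origin recognition complex, by 0.43. Of all 12633 genes tested, 14.7% were called, 8.64% higher and 6.09% lower, so the share of members called lower was near the background. At an unadjusted p under 0.05, 1 member was higher and 6 were lower, 7 of 35 beside 34.1% of all genes. DESeq2's Wald test called 0 members higher and 3 lower, edgeR's exact test 0 and 3, and limma-trend 0 and 2. Of all 12633 genes, these tests called 2832, 2493 and 1916.

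Log2 fold changes of the 35 genes lay between -0.45 and 0.28, with 12 above 0 and 23 below. Their median was -0.03, beside 0.02 over all genes tested, and the median absolute change was 0.072, beside 0.254 over all genes. With library totals in place of TMM the members' median was 0.050 and that of all genes 0.10, and 12 of the 35 were below 0, so the balance of directions depended on the scaling. The 95% intervals bounded each change to within 2-fold for all 35 genes and to within 1.5-fold for 29. Over all 12633 genes tested, 9421 were bounded to within 2-fold and 5776 to within 1.5-fold. The 3 control and 3 BAL101553 values did not overlap for 9 members, 2 of them higher and 7 lower after BAL101553, beside 39.7% of all genes (20.1% higher and 19.6% lower).

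**Figure D3:**
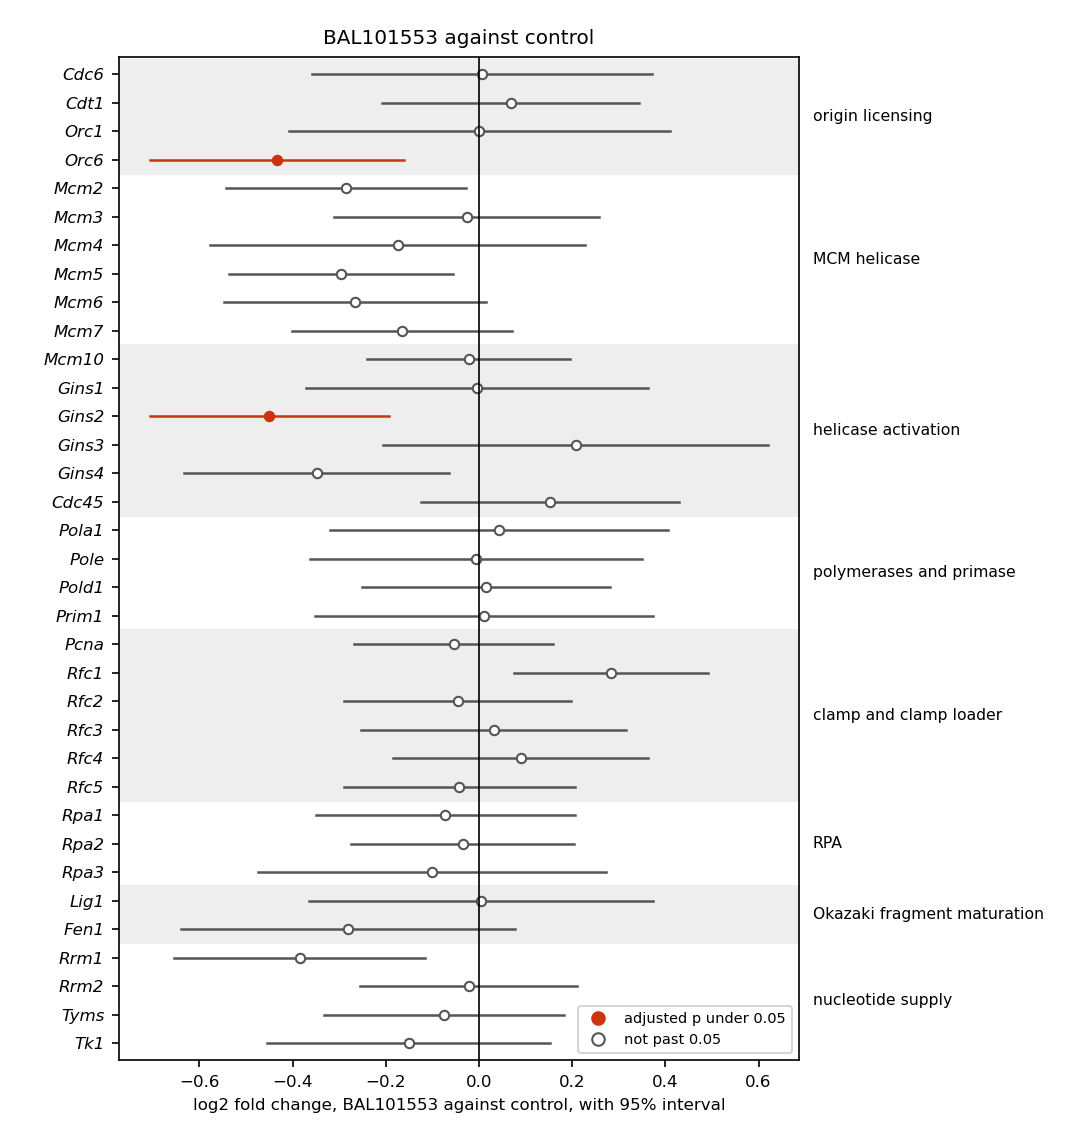
Log2 fold change of each replication gene in BAL101553 against control, with its 95% interval from edgeR's quasi-likelihood test; filled points have an adjusted p under 0.05. Values lie between -0.45 and 0.28, *Gins2* and *Orc6* are filled, and all 6 MCM ring genes lie left of 0.

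Among the origin licensing genes, *Orc6* (chr8:85299632-85308278 on GRCm38) was at 60.8, 76.4 and 70.2 CPM in the control libraries and at 49.9, 56.3 and 46.7 CPM after BAL101553. Every BAL101553 library was thus below every control library. The log2 fold change was -0.43 (SE 0.12, adjusted p = 0.0462). The other 3 licensing genes did not pass the test. *Orc1*, the largest ORC subunit, was at 6.46, 7.16 and 8.42 CPM in control and 7.70, 6.31 and 7.95 CPM after BAL101553, with overlapping groups and a log2 fold change of 0.00 (95% interval -0.41 to 0.41). The loading factors *Cdc6* and *Cdt1* had log2 fold changes of 0.01 (-0.36 to 0.37) and 0.07 (-0.21 to 0.34).

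All 6 MCM ring genes had log2 fold changes below 0, with a median of -0.22, but 0 of the 6 passed the test. *Mcm6* was at 244, 302 and 238 CPM in control against 194, 234 and 221 CPM after BAL101553. Its groups did not overlap, and its log2 fold change was -0.27 (SE 0.12, adjusted p = 0.166). *Mcm5* was at 94.0, 121 and 107 CPM in control and 86.7, 89.8 and 85.1 CPM after BAL101553, again without overlap (log2 fold change -0.30, SE 0.10, adjusted p = 0.0906). *Mcm2* was at 155, 202 and 170.2 CPM against 141, 137 and 154 CPM (-0.29, SE 0.11, adjusted p = 0.116), and its highest BAL101553 library lay just under its lowest control library. *Mcm4*, *Mcm7* and *Mcm3* overlapped between groups, with -0.17, -0.17 and -0.03. With library totals, 5 of the 6 remained below 0 and the median was -0.14, and 0 of the 6 were called in any of the 25 alternatives.

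The control libraries also differed among themselves, and the part of this spread in the MCM ring changes was not tested. Without control library 1, 2 or 3 the MCM ring median was -0.31, -0.14 and -0.26. Control library 1 had the lowest level of the 3 for 29 of the 35 members (82.9%), beside 37.8% of all genes tested, and control library 2 the highest for 23 (65.7%), beside 36.2%. The summed MCM ring level was 889.95, 1169 and 966 CPM in the control libraries and only 865 to 880 CPM in the BAL101553 libraries. The control libraries thus differed among themselves by more than control library 1 differed from any BAL101553 library. Control library 1 was also lowest for 23 of the 38 other replication factors (60.5%). For the 21 mitosis genes, control library 1 was lowest for 10 (47.6%), beside 37.8% of all genes tested. BAL101553 library 1 was lowest of its group for 18 (85.7%), beside 30.5%. The same counts for the members were found in control with library totals. The median coefficient of variation of the members was 11.2% in control, 8.36% after BAL101553 and 6.99% in Astro.

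Among the genes that turn the loaded ring into an active helicase, *Gins2* was at 23.0, 26.2 and 23.1 CPM in control and 17.7, 16.9 and 18.0 CPM after BAL101553. The groups did not overlap, and the log2 fold change was -0.45 (SE 0.11, adjusted p = 0.0356). *Gins4* showed 27.8, 34.3 and 35.7 CPM against 24.1, 26.0 and 26.4 CPM, also without overlap but short of the threshold (-0.35, SE 0.12, adjusted p = 0.0917). Their partners in the same complex had values near or above 0. *Gins1* had a log2 fold change of 0.00 (-0.37 to 0.36) and *Gins3* one of 0.21 (-0.21 to 0.62), with all 3 BAL101553 values of *Gins3* (6.22, 5.68 and 5.77 CPM) above its control values (4.35, 5.46 and 5.56 CPM). *Cdc45* had 0.15 (-0.12 to 0.43), and *Mcm10*, which helps the helicase to start, -0.02 (-0.24 to 0.20).

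*Gins2* lies at chr8:120578633-120589304 on GRCm38, and 67.3% of its exon bases overlap exons of *Gse1* on the opposite strand. The study used a stranded kit, but the strand setting of the counting was not given in the sources used here, so reads of both genes may not be separated. For *Gse1* the log2 fold change was 0.14 (adjusted p = 0.442). *Orc6* shares 6.9% of its exon bases with *Vps35* on the opposite strand, which had -0.22 (adjusted p = 0.154). Both called members rested on the full set of libraries. Without any one of the 6 libraries *Gins2* was no longer called, with an adjusted p between 0.0604 and 0.0999, and *Orc6* was still called only without BAL101553 library 2 (adjusted p = 0.0341). Over the 25 alternatives *Gins2* was called in 8 and *Orc6* in 10, with log2 fold changes from -0.50 to -0.36 and from -0.60 to -0.30.

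Estimates for the genes that copy the DNA were the closest to 0. *Pola1*, *Pole* and *Pold1*, the catalytic subunits of polymerases alpha, epsilon and delta, and *Prim1*, the catalytic subunit of primase, had log2 fold changes between -0.01 and 0.04, and their 95% intervals all lay between -0.36 and 0.41. *Pola1* was at 55.9, 64.6 and 59.9 CPM in control and at 54.5, 77.5 and 53.2 CPM after BAL101553. BAL101553 library 2 was the highest of all 6 and the other two were below every control library. *Pcna* was at 199, 219 and 212 CPM in control and 198, 218 and 188 CPM after BAL101553, with largely the same range in both groups (-0.05, 95% interval -0.27 to 0.16).

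The clamp loader places PCNA on the DNA. Its large subunit *Rfc1* was at 51.5, 57.1 and 49.6 CPM in control and at 62.3, 64.6 and 65.0 CPM after BAL101553. Every BAL101553 library was higher, but the difference of 0.28 (SE 0.09) did not pass the test (adjusted p = 0.0696), and it was called in 2 of the 25 alternatives, with library totals and with all 9 libraries in one model. The small subunits *Rfc2*, *Rfc3*, *Rfc4* and *Rfc5* had log2 fold changes from -0.05 to 0.09, with overlapping groups. For the RPA genes *Rpa1*, *Rpa2* and *Rpa3* the values were -0.07, -0.03 and -0.10. In lagging strand maturation, *Lig1*, which seals the fragments, had 0.00 (-0.36 to 0.37), and *Fen1*, which trims the flaps, had -0.28 (-0.64 to 0.08). *Fen1* shares 78.8% of its exon bases with an annotated antisense gene, *Gm10143*, which, unlike *Gse1*, has no row in the deposited counts. As the strand setting of the counting was not given, the level of *Fen1* may include antisense reads.

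Among the nucleotide supply genes, *Rrm1*, the large subunit of ribonucleotide reductase, was at 131, 134 and 139 CPM in control and 89.0, 119 and 101 CPM after BAL101553. The groups did not overlap. Its log2 fold change of -0.39 (SE 0.12) missed the threshold (adjusted p = 0.0611) and passed it in 6 of the 25 alternatives. *Rrm2*, the small subunit that limits the enzyme to S phase, was at 109, 95.1 and 98.7 CPM against 95.6, 108 and 93.0 CPM, with overlapping groups (-0.02, 95% interval -0.25 to 0.21). *Tyms*, which makes thymidylate, and *Tk1*, which salvages thymidine, had -0.08 and -0.15. The table also holds a pseudogene of *Tyms*, so that reads of *Tyms* may be split between both.

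Genes around this core were taken from 6 lists of replication, nucleotide, chromatin, E2F, checkpoint and mitosis genes. Of 38 other replication factors, 3 were higher after BAL101553 and 0 lower, beside 8.64% and 6.09% of all genes tested. *Cdc7*, the kinase that starts helicase activation, was at 7.40, 8.49 and 8.46 CPM in control and 13.5, 16.6 and 15.8 CPM after BAL101553. All BAL101553 values were above all control values, and the log2 fold change was 0.92 (SE 0.14, adjusted p = 0.0118). Its activating partner *Dbf4* had -0.01 (95% interval -0.21 to 0.20). *Recql4*, a helicase that acts in the assembly of the replication fork, rose by 0.73 (adjusted p = 0.0191), and *Timeless*, which steadies the fork, by 0.56 (adjusted p = 0.0442).

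Of 20 other nucleotide synthesis genes, 1 was lower and 0 were higher, beside 6.09% and 8.64% of all genes tested. *Nme1*, a nucleoside diphosphate kinase, was at 182, 176 and 179.7 CPM in control and 131, 115 and 120.2 CPM after BAL101553, a log2 fold change of -0.55 (SE 0.08, adjusted p = 0.0111). Its neighbor and close paralog *Nme2* had -0.49 (adjusted p = 0.0326), and reads shared by both would make the values depend on each other. *Rrm2b*, the ribonucleotide reductase subunit used outside S phase, had 0.38 (adjusted p = 0.0825). Of 13 chromatin assembly genes and 18 replication checkpoint genes, edgeR called 0, beside 14.7% of all genes tested. At an unadjusted p under 0.05 there were 5 and 2, beside 34.1% of all genes.

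The list of 31 E2F and Rb regulators held 4 genes that rose and 2 that fell, with 19.4% of the list called beside 14.7% of all genes tested. Those that rose were *E2f2*, an activating E2F factor, by 1.06 (adjusted p = 0.0390), *Cdkn1b*, the CDK inhibitor p27, by 0.72 (adjusted p = 0.0419), *Ccnd2*, cyclin D2, by 0.60 (adjusted p = 0.0412), and *Cdk6*, the kinase that cyclin D2 binds, by 0.47 (adjusted p = 0.0350). *Ccnd1*, cyclin D1, fell by 0.47 (adjusted p = 0.0460), from 1228, 1187 and 1053 CPM in control to 728, 806 and 964 CPM after BAL101553. *Cdc25a*, the phosphatase that activates CDK2, fell by 0.40 (adjusted p = 0.0412). *E2f1* and *Ccne1*, cyclin E1, did not pass, with -0.25 (adjusted p = 0.0687) and -0.37 (adjusted p = 0.0889), although neither overlapped between groups. *Ccne2*, *Ccna2* and the CDK inhibitor *Cdkn1a* had 0.00, -0.08 and 0.11, all with overlapping groups.

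Of 21 mitosis genes, 2 were higher after BAL101553 and 0 lower, beside 8.64% and 6.09% of all genes tested. The 2 were *Cenpf*, a kinetochore protein, by 0.49 (adjusted p = 0.0441) and *Bub1b*, a spindle checkpoint kinase, by 0.37 (adjusted p = 0.0465). *Mki67*, the proliferation marker Ki-67, was at 126, 113 and 129 CPM in control and at 131, 217 and 174 CPM after BAL101553, where the groups touch closely without overlap and the spread after treatment was wide (0.51, SE 0.17, adjusted p = 0.0813). *Top2a*, a topoisomerase that peaks in G2 and mitosis, had 0.05 (-0.18 to 0.29). The median log2 fold change of the mitosis list was -0.02, close to the -0.03 of the replication genes. The 14 genes called here from the members and the 6 lists, 2 members and 12 others, kept their sign in all 25 alternatives. They were chosen as called in the same libraries that the alternatives refit, so the kept signs are not independent support. Fewer were called with libraries left out: 2, 3 and 0 of the 14 without control library 1, 2 or 3. Without BAL101553 library 1, 2 or 3 they were 7, 8 and 3, and with the replicate number as a block 4. *Nme2*, which is in none of these lists, was not followed through the alternatives.

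**Figure D4:**
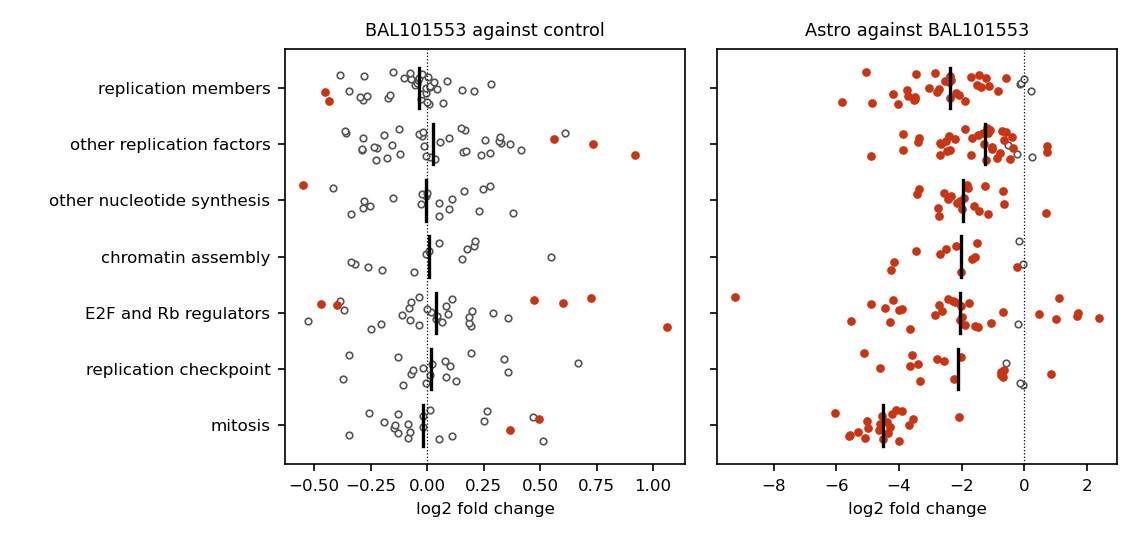
Log2 fold changes of the 35 replication genes and of 6 related lists, in BAL101553 against control (left) and Astro against BAL101553 (right); each point is a gene, filled where the adjusted p is under 0.05, and bars are medians. The list medians lie near 0 on the left, and between -4.52 for mitosis genes and -1.25 for other replication factors on the right.

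Astro and BAL101553 libraries carry the same treatment label and were compared to show the members in brain cells and in tumor cells. Here 31 of the 35 replication genes were lower in Astro and 0 were higher in edgeR's quasi-likelihood test. Of all 15314 genes tested, 85.1% were called, 46.3% higher and 38.9% lower. The median log2 fold change of the members was -2.36, beside 0.18 over all genes, and 29 of the 35 were at least 2-fold and 11 at least 10-fold lower. The share of all genes past these limits was not counted. Changes were large in general, with a median absolute log2 fold change of 2.36 for the members and 1.42 over all genes. Values did not overlap between groups for 33 members, 32 lower and 1 higher, beside 87.8% of all genes (47.6% higher and 40.2% lower). Summed over the members, the level was 2190.0 to 2311 CPM after BAL101553 and 575 to 596 CPM in Astro, where control libraries had 2228 to 2690.4 CPM.

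The size of the difference varied with the role of the genes. By median log2 fold change it was largest for origin licensing, with a median of -4.45, followed by the MCM ring with -3.47, nucleotide supply with -3.15 and helicase activation with -2.48. Polymerases and primase had -2.05, lagging strand maturation -2.03, clamp and clamp loader -1.93 and RPA -0.58. The mitosis list had a median of -4.52, with 21 of 21 genes lower, beside 38.9% of all genes tested.

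*Orc1* had the lowest level in Astro, at 0.0925, 0.172 and 0.113 CPM, against 7.70, 6.31 and 7.95 CPM after BAL101553. Its log2 fold change was -5.81 (SE 0.30, adjusted p = 6.54e-07). This rests on 11 reads in the 3 Astro libraries together against 655 in the BAL101553 libraries, a ratio of 59.1 with a 95% interval from 32.8 to 119 that covers counting error only. *Cdt1* was at 65.7, 76.7 and 61.0 CPM after BAL101553 and at 2.19, 2.28 and 2.38 CPM in Astro (-4.88, adjusted p = 2.63e-08), and *Cdc6* was 16.4-fold lower (-4.03, adjusted p = 4.66e-07). *Orc6*, at 13.1, 12.6 and 15.4 CPM in Astro, was the least different of the licensing genes, with -1.88 (adjusted p = 1.83e-06).

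The MCM ring genes fell into 2 sets in Astro. *Mcm2*, *Mcm3*, *Mcm5* and *Mcm6* were between 11.1- and 13.1-fold lower than after BAL101553, with log2 fold changes from -3.71 to -3.47. *Mcm4* and *Mcm7* were 5.12- and 4.27-fold lower, with -2.36 and -2.10, and their 95% intervals (-2.68 to -2.03 and -2.29 to -1.90) did not meet those of the other four. This gap between the sets was seen after the values were known and was not tested itself. *Mcm7* holds annotated miRNA genes on its own strand and overlaps *Ap4m1* on the opposite strand over 7.3% of its exon bases.

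The helicase activation genes were the least uniform. *Mcm10* (-4.19) and *Cdc45* (-3.76) were among the most different of all members, *Gins2* (-2.79) and *Gins1* (-2.17) were intermediate and *Gins3* had -0.84, each called lower. *Gins4* differed from its partners. It was at 30.1, 28.2 and 29.2 CPM in Astro and at 24.1, 26.0 and 26.4 CPM after BAL101553, with every Astro library higher (0.21, SE 0.09, adjusted p = 0.0601). It was called higher in 6 of 16 alternatives, among them library totals (0.41), under which the median of all genes moved from 0.18 to 0.39. The control values of *Gins4* (27.8, 34.3 and 35.7 CPM) enclosed those of Astro.

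The clamp loader genes *Rfc1* and *Rfc2* and the RPA gene *Rpa1* were not called either. *Rfc1* was at 60.9, 57.1 and 56.7 CPM in Astro, under every BAL101553 library, with -0.12 (95% interval -0.29 to 0.05), and *Rfc2* at 41.5, 39.3 and 43.3 CPM, with -0.11 (-0.33 to 0.11). *Rpa1* was at 92.6, 87.4 and 97.4 CPM, within the range of its BAL101553 libraries, with 0.00 (-0.25 to 0.25). With library totals these changes were 0.08, 0.09 and 0.21, so their signs depended on the scaling. Their partners were lower, with *Rfc3*, *Rfc4* and *Rfc5* between -2.52 and -2.35, *Rpa2* at -0.58 and *Rpa3* at -1.22. Opposite-strand exons overlap 15.1% of the exon bases of *Rfc2* (*Lat2*), 12.7% of *Rfc4* (*Eif4a2*) and 10.7% of *Rfc5* (*Wsb2*). As the strand setting of the counting was not given, reads of these genes may not be separated.

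**Figure D5:**
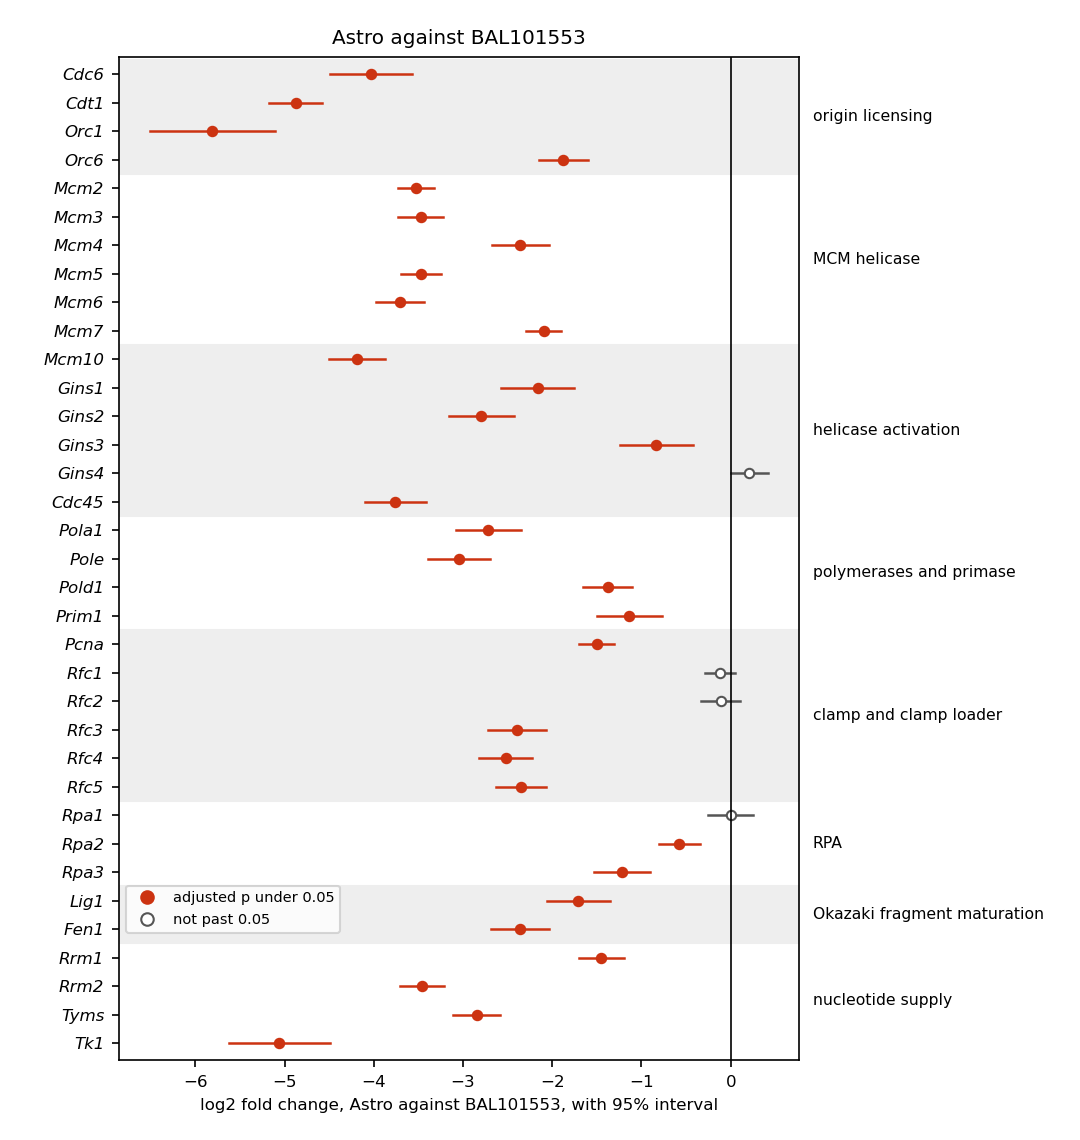
Log2 fold change of each replication gene in Astro against BAL101553, with its 95% interval from edgeR's quasi-likelihood test; filled points have an adjusted p under 0.05. Values reach from -5.81 for *Orc1* to 0.21 for *Gins4*, and *Gins4*, *Rfc1*, *Rfc2* and *Rpa1* are the open points.

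The remaining members were all lower in Astro. *Pole* had -3.05, *Pola1* -2.72, *Pold1* -1.38 and *Prim1* -1.13. *Pcna* was at 72.0, 71.7 and 67.3 CPM in Astro, a log2 fold change of -1.50 (adjusted p = 9.44e-07), so the gene with the highest level per kb was among those with smaller differences. *Tk1* reached -5.06, from 40.5, 37.8 and 39.3 CPM after BAL101553 to 0.894, 0.897 and 1.74 CPM in Astro, where the third library was well above the others. *Rrm2* had -3.46 and *Rrm1* -1.45, so that the subunits of ribonucleotide reductase differed in size of change, while *Rrm2b* was called higher in Astro (0.71, adjusted p = 0.000711). *Tyms* had -2.85, *Fen1* -2.36 and *Lig1* -1.71.

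Over all genes tested in this comparison, 38.9% were called lower in Astro and 46.3% higher. Of the other lists, 33 of 38 replication factors were lower in Astro and 2 higher, *Mcm9* and *Pold3*, each by 0.73 (named after their values were seen). Lower counts were 19 of 20 for nucleotide synthesis, 11 of 13 for chromatin assembly, 14 of 18 for the checkpoint and 24 of 31 for E2F and Rb regulators, of which 6 were higher. Among the latter, *Cdkn1b* rose by 1.11, and *Rb1* and *Rbl2*, members of the retinoblastoma family, by 2.40 and 1.69 (also named after their values were seen). *E2f1* had -3.64. The 12 members with E2F letters in their promoter window had a median of -3.10 in Astro against BAL101553, and the 17 with a window but no such letters had -2.35. In BAL101553 against control the medians were 0.01 and -0.05, with 0 and 1 genes called. These medians are descriptions of 2 groups of genes with different roles, and no test was made of them.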

How the data were processed

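The authors sequenced stranded libraries with 50-base reads. Mapping was by TopHat, and HTSeq and featureCounts are both named as counters. The submitters' processing notes name mm10 and HTSeq 0.6.1. Which counter made the table, its strand setting and its annotation are not given in the sources used here. For 9 libraries the deposited values are unnormalized whole-number read counts of each gene. Date-like names stand in place of 27 gene names. They held at most 0.440% of the counts of any library and were neither removed nor named.

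The main test was the quasi-likelihood test of edgeR 4.0.16 (R 4.3.3) on the 2 groups compared, two-sided, after filterByExpr and TMM scaling, with p adjusted over every gene tested by Benjamini-Hochberg and called under 0.05. Each standard error was derived from the F statistic of its test as |log2 fold change|/√F. CPM were scaled by TMM over the 9 libraries. Total counts were 24540452 to 28761388 in control, 26667789 to 34013875 in BAL101553 and 22919523 to 29230743 in Astro, which leaves counting error small beside the spread between libraries for genes with many reads. Alternatives used DESeq2 1.42.0, limma 3.58.1 (limma-trend, prior count 2), edgeR's exact test, 3 other scalings, 2 other low-count filters (1 count in any library, or 10 counts in every library), a model of all 9 libraries, the replicate number as a block, and each library left out. Positions and exon lengths came from GENCODE vM21 on GRCm38, and promoter windows from RefSeq on GRCm38.p6. Members and lists were chosen with earlier results of these data known. Genes named were all members, *Mki67*, *Top2a*, *E2f1*, *Ccne1*, *Ccne2*, *Ccna2*, *Cdkn1a* and *Rrm2b*, and, from each related list, the called genes of BAL101553 against control with at most the 3 largest rises and 3 largest falls; *Cdk6*, *Dbf4*, *Nme2*, *Rb1*, *Rbl2*, *Mcm9*, *Pold3* and genes overlapping members were named after their values were seen. Cell type markers are given by list sums with the highest marker named.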

Additional observations from a re-analysis of the deposited data

How the results depend on the processing

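In BAL101553 against control, the members called lower, 2 in the analysis reported, were 0 with library totals, 4 with all 9 libraries in one model, and 0 with the replicate number as a block, and 0 to 2 when 1 library was left out in a group or in both. Members called higher, 0 as reported, were 1 with library totals and 1 with all 9 libraries. The members' median turned from -0.03 to 0.050 with library totals. All genes called, 1860 as reported (1091 higher, 769 lower), were 2832 with DESeq2's Wald test, 3022 with all 9 libraries and 1 to 1757 with libraries left out: 458, 1260 and 193 without control library 1, 2 or 3, and 1133, 1712 and 668 without BAL101553 library 1, 2 or 3. With library totals they were 1456 higher and 425 lower. In Astro against BAL101553, members called lower were 31 in each alternative that left out 1 library, and *Gins4* made the members called higher 1, in place of 0, with DESeq2's size factors, upper quartile scaling, library totals, DESeq2's Wald test, limma-trend and at least 10 counts in every library. The members' median, -2.36, was -2.18 with upper quartile scaling, -2.16 with library totals and -2.13 with at least 10 counts in every library, a filter that removed *Orc1*. Whether the replicate numbers pair the libraries is not stated. Deviations of same-numbered control and BAL101553 libraries correlated with r of 0.143, 0.0114 and 0.146. For unlike numbers r lay between -0.194 and 0.082, and not every library correlated best with its own number. So few values cannot decide whether the libraries are paired. The block moved the genes called from 1860 to 1371. The causes of these changes were not tested. With 3 libraries a group and spread between the control libraries, changes of members within the printed intervals cannot be resolved.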
